A study of Mus musculus with 12 samples.

Results

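The genes described here encode the chains of major histocompatibility complex (MHC) class I molecules and the proteins that load them with peptide. They were chosen by symbol: the heavy chains H2-K1 and H2-D1, the light chain B2m, the transporter subunits Tap1 and Tap2, the loading chaperone Tapbp, the peptide-trimming enzyme Erap1 and the transcriptional activator Nlrc5. Of these 8 genes 7 were measured, each on 1 probe set, among 19505 named genes on the array. Nlrc5 was not analysed here.

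Expression was profiled in 12 murine tumors that grew from neuroblastoma cells, a tumor of the sympathetic nervous lineage, inoculated into mice of the inbred strain A/J. There were 4 groups of 3 tumors: untreated control tumors, and tumors given high intensity focused ultrasound (HIFU) and labelled with 24, 48 or 72 h. In HIFU, focused sound waves disrupt tissue. Each time is taken as the hours from HIFU to sampling, which the labels leave unsettled. The sources used here do not give the cell line, the age of the mice or whether tumors of a group grew in separate animals, so a p-value reflects only the spread between these samples, part of which may be technical. Each tumor was frozen and ground whole, and its RNA was measured on 1 Affymetrix Mouse Clariom S array.

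MHC class I molecules display peptides from inside the cell to CD8+ T cells. Peptides cut by the proteasome are pumped into the endoplasmic reticulum by the TAP transporter, trimmed by Erap1, and loaded with the help of tapasin, the product of Tapbp, onto a heavy chain bound to beta-2 microglobulin. Interferon gamma is known to induce most of these genes, and neuroblastoma is known as a tumor type with low class I expression.

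The array values are log2 signals (base 2 was read from their range and is not stated), so a difference of 1 is a 2-fold difference. A signal depends on the probes as well as on the transcript, so levels are not compared between genes. Across the 12 arrays the median signal lay between 5.43 and 5.68. Of 8 measured markers of the sympathetic lineage, Dbh, which makes noradrenaline, had signals from 11.99 to 16.46. Chgb, a secretory granule protein, had signals from 13.45 to 17.63, and Mycn from 4.46 to 7.28. The median of the 8 stood between -1.52 and 1.55 around the control mean in controls and between -1.45 and 1.43 in the 9 HIFU arrays. In these bulk samples, fewer cells of a type and less RNA per cell cannot be told apart. All 18 skeletal muscle genes were higher on average in HIFU tumors than in controls, and 0 of them passed the test over all probe sets. Of all 22206 probe sets 10957 were higher over all HIFU tumors, and 4 passed as higher. Their median stood between -1.31 and 2.06 around the control mean in controls and between 2.23 and 5.80 above it in the 9 HIFU arrays.

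RefSeq promoter windows (assembly GRCm38.p6, 250 bases before to 50 after the annotated start) were found for 6 of the 7 measured genes, and Tap2 had none in the table. The build is that of the reference genome, which may differ from the A/J sequence. The stretches of H2-K1, H2-D1 and B2m are shown because the chains that form the class I molecule share a spaced pair of motifs. They are printed 5′ to 3′ on the strand of the gene, with motif matches in capitals. The matches in capitals are TGACG and, 20 bases on, ATTGG (the reverse complement of CCAAT), and GGGATTCCC where present. Another CCAAT, outside the pair, was left in small letters in the H2-K1 and H2-D1 stretches. Also in capitals is the interferon-type motif GAANNGAAA, on the reverse strand in H2-K1 and H2-D1 (read as TTTCACTTC). B2m holds its form with a further A just before NN.
H2-K1: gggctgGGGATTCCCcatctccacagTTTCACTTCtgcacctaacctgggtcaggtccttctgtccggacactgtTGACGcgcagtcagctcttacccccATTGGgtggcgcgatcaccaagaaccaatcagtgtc
H2-D1: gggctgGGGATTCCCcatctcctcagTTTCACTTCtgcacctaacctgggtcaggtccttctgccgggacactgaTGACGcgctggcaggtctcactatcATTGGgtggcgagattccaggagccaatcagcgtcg
B2m: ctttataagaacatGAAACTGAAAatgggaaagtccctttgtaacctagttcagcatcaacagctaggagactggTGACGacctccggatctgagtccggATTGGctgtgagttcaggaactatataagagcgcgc
They lie at chr17:34000328-34000463 on the minus strand for H2-K1, chr17:35262918-35263053 on the plus strand for H2-D1, and chr2:122147534-122147669 on the plus strand for B2m. Aligned on the pair, the H2-K1 and H2-D1 stretches were identical at 106 of 136 bases (77.9%), and each was identical to B2m at 51 (37.5%).

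The pair TGACG, 20 bases, ATTGG was found in 3 of the 6 windows and in 26 of 27025 RefSeq promoters of the same length (0.0962%), searched on both strands. H2-M3, a non-classical class I heavy chain, was among the 26. Signals are given here for H2-K1, H2-D1, B2m and H2-M3 and for no other gene of the 26. The pair was picked after the sequences were seen, and its TGACG and ATTGG overlap the single matches to TGACG and CCAAT. GAANNGAAA was found in 2 of 6 windows, H2-K1 and H2-D1, and in 7.56% of all promoters. The form with a further A was found in 2 of 6, B2m and Erap1, and in 3.49%. GGGATTCCC was found in H2-K1 and H2-D1 and in 0.37%. TGACG alone was found in 4 of 6 and in 21.0%, CCAAT in 5 of 6 and in 37.9%, and TTCNNNGAA in 0 of 6 and in 8.47%. A match describes letters in the window and is not evidence of binding.

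**Figure D1:**
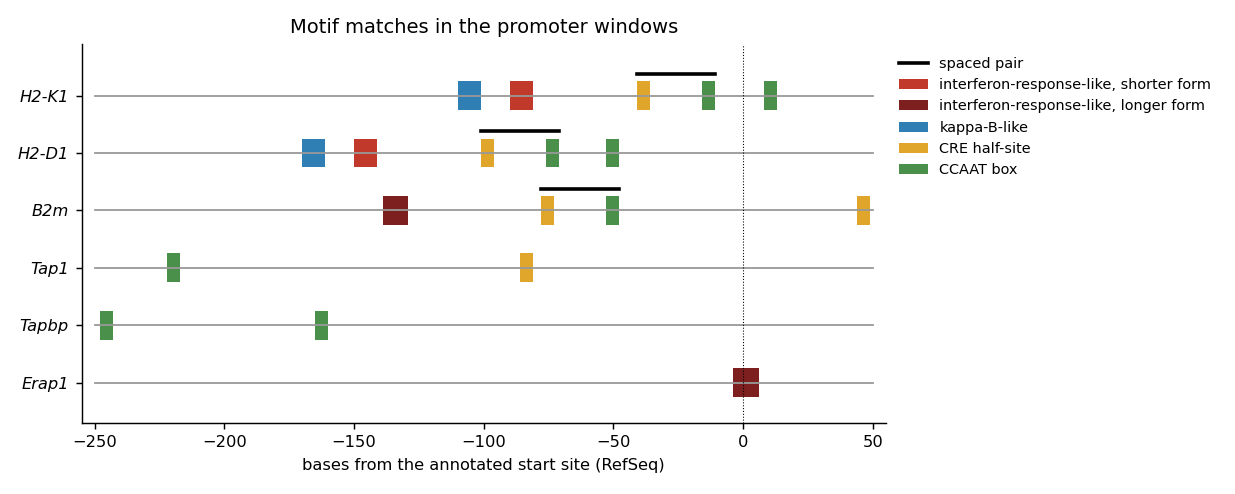
Motif matches in the RefSeq promoter windows of the members, by distance in bases from the annotated start (x axis), with 1 row per gene and a coloured block per match: blue for GGGATTCCC, light and dark red for the shorter and longer interferon-type motif, yellow for TGACG, green for CCAAT, and a black bar for the spaced pair. The pair stands in H2-K1, H2-D1 and B2m, and in 3 of 6 windows in all.

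For the transporter and the trimming enzyme, the stretches that hold their matches are shown for contrast, since neither holds the spaced pair. In Tap1 the capitals mark CCAAT and TGACG, and in Erap1 the reverse complement of the form with a further A.
Tap1: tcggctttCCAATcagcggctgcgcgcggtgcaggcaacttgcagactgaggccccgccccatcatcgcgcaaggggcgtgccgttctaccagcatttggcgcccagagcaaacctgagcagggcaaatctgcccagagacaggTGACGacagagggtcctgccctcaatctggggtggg
Erap1: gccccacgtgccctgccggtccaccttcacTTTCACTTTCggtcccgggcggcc
They lie at chr17:34187326-34187505 and chr13:74639819-74639872, both on the plus strand. Tap1 is read divergently from Psmb9, an immunoproteasome subunit, and the windows of these neighbours share 275 bases. In RefSeq the protein-coding genes Psmb9, Tap1, Psmb8 and Tap2 follow each other on chromosome 17, which carries 5 of the 7 measured members. B2m is on chromosome 2 and Erap1 on chromosome 13.

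All 7 members had lower mean signals than control at 24 h, at 48 h and at 72 h (as 49.6%, 48.8% and 56.2% of all probe sets did) and over all HIFU tumors (50.5%). At 24 h the 3 HIFU arrays lay below all 3 controls for 7 of 7 members (7.68% of all probe sets did so), at 48 h for 6 of 7 (11.7%), and at 72 h for 3 of 7 (10.1%). The members' median difference was -1.81 at 24 h, -1.19 at 48 h and -0.53 at 72 h, against medians of all probe sets of 0.00, 0.01 and -0.06. The 72 h median rested on single arrays, at -0.25 without HIFU_72h replicate 1 and -0.79 without HIFU_72h replicate 2. None passed limma's test with Benjamini-Hochberg adjustment over all 22206 probe sets at 0.05 in any comparison. By the same test 0.0045% of probe sets passed as lower at 24 h and 0% at 48 h, at 72 h and over all HIFU tumors. By the moderated F test over the 3 times 0 members passed, against 0.00901% of all probe sets. Unadjusted p-values were under 0.05 for 7 members at 24 h (5.86% of all probe sets as lower), 5 at 48 h (8.01%), 1 at 72 h (5.39%) and 7 for all HIFU tumors (8.59%). The values of a gene at the 3 times are set against the same 3 controls. The members also varied together over the 12 arrays (Pearson r of pairs from 0.52 to 0.95). Counts of members are therefore not counts of independent results. With array weights, which let arrays far from their group count less, 5 members passed as lower at 24 h, 1 at 48 h, 1 at 72 h and 6 over all HIFU tumors, and 2.64%, 2.85%, 4.4% and 9.87% of all probe sets did.

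**Figure D2:**
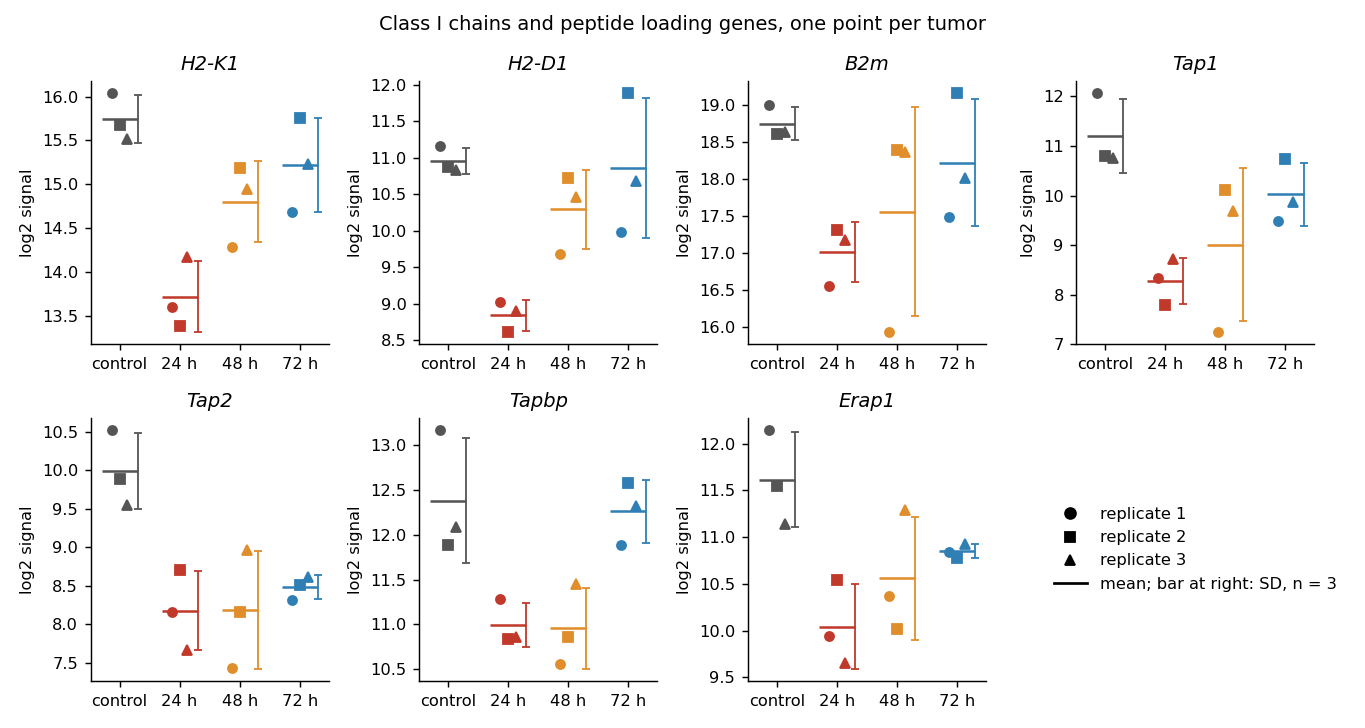
Log2 signal (y axis) of each of the 7 measured members on each of the 12 arrays, grouped as control, 24, 48 and 72 h (x axis), with marker shapes for replicates 1, 2 and 3, a line for the group mean and a bar for the SD (n = 3). At 24 h every HIFU array lies below every control in all 7 panels.

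The heavy chains H2-K1 and H2-D1 form the peptide groove and give the molecule its specificity. H2-K1 (probe set TC1700001892.mm.2) had signals of 16.04, 15.67 and 15.51 in controls, 13.60, 13.38 and 14.17 at 24 h, 14.28, 15.18 and 14.94 at 48 h, and 14.68, 15.75 and 15.23 at 72 h. The 24 and 48 h arrays lay below every control, and at 72 h replicate 2 lay within the control range. The group means were 15.74 ± 0.27 (SD, n = 3) in controls, 13.72 ± 0.41 at 24 h, 14.80 ± 0.47 at 48 h and 15.22 ± 0.54 at 72 h. At 24 h the difference was -2.02 ± 0.34 SE, or 24.6% of the control signal on the linear scale (adjusted p = 0.0956). At 48 h it was -0.94 ± 0.34 SE (adjusted p = 0.294) and at 72 h -0.52 ± 0.34 SE (adjusted p = 0.605), or -0.25 without HIFU_72h replicate 1 and -0.79 without HIFU_72h replicate 2.

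H2-D1 (TC1700002790.mm.2) had signals of 11.16, 10.88 and 10.83 in controls, 9.02, 8.61 and 8.90 at 24 h, 9.68, 10.73 and 10.47 at 48 h, and 9.99, 11.89 and 10.69 at 72 h. As for H2-K1, the 24 and 48 h arrays were below all controls, while at 72 h replicate 2 was above all of them and the other two were below. The means were 10.96 ± 0.18 in controls, 8.84 ± 0.21 at 24 h, 10.29 ± 0.55 at 48 h and 10.86 ± 0.96 at 72 h (SD, n = 3). The 24 h difference was -2.11 ± 0.42 SE, 23.1% of control (adjusted p = 0.158). The differences at 48 and 72 h were -0.66 (adjusted p = 0.522) and -0.10, the latter with a 95% interval from -1.03 to 0.83. Without HIFU_72h replicate 1 the 72 h difference was 0.33, without HIFU_72h replicate 2 it was -0.62, and without control replicate 1 it was 0.0017. Without HIFU_48h replicate 1 the 48 h difference was -0.36.

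At 24 h neither heavy chain passed (limma adjusted p = 0.0956 for H2-K1 and 0.158 for H2-D1). Leaving out some single arrays changed this. Without control replicate 3, H2-K1 passed with -2.14 ± 0.39 SE (adjusted p = 0.0283), when 0.905% of all probe sets passed as lower. With all arrays its SE was narrower, at 0.34, and 0.0045% of all probe sets passed as lower. Without HIFU_72h replicate 2, which enters only through the shared spread, H2-K1 passed with -2.02 (adjusted p = 0.044) and H2-D1 with -2.11 (adjusted p = 0.0276), with 0.0135% of all probe sets. H2-K1 and H2-D1 are close paralogs, A/J mice carry their own alleles of both, and probes can bind transcripts of either, so the split of signal between them is uncertain.

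B2m encodes beta-2 microglobulin, the light chain that every class I heavy chain needs to reach the surface. Its signals (TC0200001838.mm.2) were 19.00, 18.60 and 18.64 in controls, 16.55, 17.31 and 17.17 at 24 h, 15.93, 18.39 and 18.36 at 48 h, and 17.48, 19.16 and 18.01 at 72 h. The 24 and 48 h arrays lay below every control, 2 of the 48 h arrays by little, and at 72 h replicate 2 was above all controls. The means were 18.75 ± 0.22, 17.01 ± 0.40, 17.56 ± 1.41 and 18.22 ± 0.86 (SD, n = 3) in controls and at 24, 48 and 72 h. The differences were -1.74 ± 0.61 SE at 24 h (adjusted p = 0.407), -1.19 at 48 h (adjusted p = 0.424) and -0.53 at 72 h (adjusted p = 0.817). Without HIFU_48h replicate 1 the 48 h difference was -0.37. The 72 h difference was -0.16 without HIFU_72h replicate 1 and -1.0 without HIFU_72h replicate 2. These are signals near the top of the array's range of 1.75 to 19.93, where a linear response was not tested.

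Tap1 and Tap2 encode the paired subunits of the transporter that carries peptides into the endoplasmic reticulum. Tap1 (TC1700000621.mm.2) had signals of 12.07, 10.80 and 10.75 in controls, 8.33, 7.78 and 8.71 at 24 h, 7.24, 10.11 and 9.68 at 48 h, and 9.48, 10.73 and 9.86 at 72 h. Each of the 9 HIFU arrays lay below each control, though HIFU_72h replicate 2 by only 0.02. The means were 11.21 ± 0.75 in controls, 8.27 ± 0.47 at 24 h, 9.01 ± 1.55 at 48 h and 10.02 ± 0.64 at 72 h (SD, n = 3). The 24 h difference, -2.93 ± 0.67 SE or 13.1% of control, was the widest of the 7 members (adjusted p = 0.213). At 48 h it was -2.20 ± 0.67 SE (adjusted p = 0.243), or -1.31 without HIFU_48h replicate 1, and at 72 h -1.18 ± 0.67 SE (adjusted p = 0.540), or -0.75 without control replicate 1.

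Tap2 (TC1700000623.mm.2) had signals of 10.53, 9.89 and 9.55 in controls, 8.16, 8.70 and 7.67 at 24 h, 7.43, 8.16 and 8.96 at 48 h, and 8.32, 8.51 and 8.62 at 72 h. Here too all 9 HIFU arrays lay below all 3 controls, and the 3 HIFU groups overlapped one another. Over all HIFU tumors Tap1 and Tap2 were the 2 of 7 members with no overlap with controls, where 1.65% of all probe sets had none. The Tap2 means were 9.99 ± 0.50, 8.18 ± 0.52, 8.18 ± 0.77 and 8.48 ± 0.15 (SD, n = 3). The differences were -1.81 ± 0.40 SE at 24 h (adjusted p = 0.205), -1.81 at 48 h (adjusted p = 0.202) and -1.51 at 72 h (adjusted p = 0.281). Tap2 at 72 h was the member with an unadjusted p under 0.05 at that time. Over all HIFU tumors the difference was -1.71 ± 0.33 SE (adjusted p = 0.125), and without control replicate 3 it passed with -1.93 (adjusted p = 0.0311; 1.37% of all probe sets).

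Tapbp encodes tapasin, which bridges the transporter and the empty heavy chain. Its signals (TC1700002778.mm.2) were 13.17, 11.88 and 12.09 in controls, 11.28, 10.84 and 10.86 at 24 h, 10.56, 10.86 and 11.45 at 48 h, and 11.88, 12.58 and 12.32 at 72 h. The 24 and 48 h arrays lay below all controls, and the 72 h arrays lay within the control range. The means were 12.38 ± 0.69, 10.99 ± 0.25, 10.96 ± 0.45 and 12.26 ± 0.35 (SD, n = 3). The differences were -1.39 ± 0.36 SE at 24 h (adjusted p = 0.276), -1.42 at 48 h (adjusted p = 0.206) and -0.12 at 72 h, with a 95% interval from -0.91 to 0.67. The 72 h difference had the opposite sign without control replicate 1 (0.28), without HIFU_72h replicate 1 (0.07) and with array weights (0.026), and it was -0.37 without control replicate 2. Over all HIFU tumors the difference was -0.98, or -0.58 without control replicate 1.

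Erap1 encodes the aminopeptidase that trims peptides to the length that fits the groove. Its signals (TC1300000904.mm.2) were 12.15, 11.55 and 11.14 in controls, 9.94, 10.54 and 9.65 at 24 h, 10.37, 10.02 and 11.29 at 48 h, and 10.84, 10.78 and 10.93 at 72 h. The 24 and 72 h arrays lay below all controls, and HIFU_48h replicate 3 lay above 1 of them. The means were 11.61 ± 0.51, 10.04 ± 0.45, 10.56 ± 0.66 and 10.85 ± 0.08 (SD, n = 3). The differences were -1.57 ± 0.37 SE at 24 h (33.7% of control, adjusted p = 0.220), -1.05 at 48 h (adjusted p = 0.280) and -0.76 at 72 h (adjusted p = 0.465), or -0.50 without control replicate 1.

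**Figure D3:**
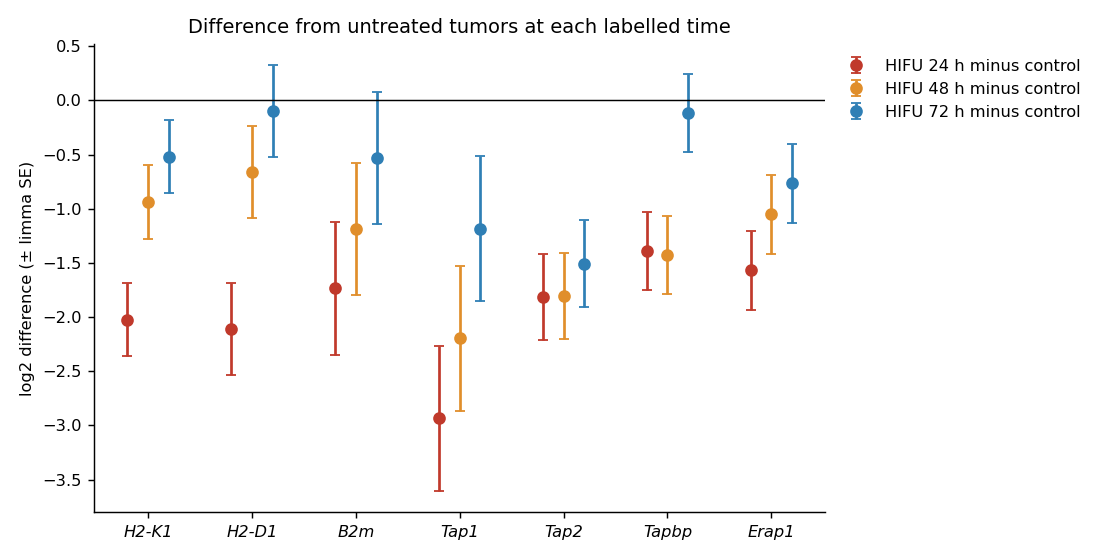
Log2 difference from control (y axis) of each member (x axis) at 24 h (red), 48 h (orange) and 72 h (blue), with points for the limma estimates and bars for ± 1 SE. Estimates run from -2.93 for Tap1 at 24 h to -0.10 for H2-D1 at 72 h.

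The order of the group means was control, 72 h, 48 h and 24 h from high to low for H2-K1, H2-D1, B2m, Tap1, Tap2 and Erap1, and control, 72 h, 24 h and 48 h for Tapbp. Neighbours in this order often lay within their spread: the arrays of 48 and 72 h overlapped in 6 of the 7 genes, those of 24 and 48 h in 5, and those of 72 h and controls in 4. Between 24 and 72 h the later arrays lay above the earlier ones for 6 of 7 members (4.53% of all probe sets), Tap2 being the exception. The differences were 1.50 ± 0.34 SE for H2-K1 (adjusted p = 0.528), 2.01 ± 0.42 SE for H2-D1 (adjusted p = 0.455) and 0.31 ± 0.40 SE for Tap2 (adjusted p = 0.952). Unadjusted p-values were under 0.05 for 5 of 7 (3.22%), and no member passed between times over all probe sets, as 0% of probe sets did.

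From 24 to 48 h H2-K1 was higher by 1.08 ± 0.34 SE and H2-D1 by 1.45 ± 0.42 SE, with no overlap of the arrays (2 of 7 members; 3.43% of all probe sets; adjusted p = 0.999 for both). Tap2 and Tapbp had differences of 0.01 and -0.04 over that interval, and the sign of each depended on single arrays. From 48 to 72 h Tapbp was higher by 1.30 ± 0.36 SE without overlap (1 of 7; 4.70%; adjusted p = 0.738), against 0.42 for H2-K1 and 0.30 for Tap2. Whether these differences between times are unequal among the genes was not tested.

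Within an array, the difference between 2 genes is free of a constant added to all log2 signals of that array. The signal of each other member minus that of H2-K1 was therefore compared between the 9 HIFU arrays and the 3 controls (6 comparisons, exact two-sided permutation test over 220 assignments, smallest possible p = 0.00455). For Tap1 this difference was -4.53 ± 0.49 (SD, n = 3) in controls and -5.48 ± 0.61 (SD, n = 9) in HIFU tumors, a change of -0.94, and 9 of 9 HIFU arrays lay below all controls. Its exact permutation p was 0.0273, or 0.164 adjusted over the 6, so it did not pass. Without HIFU_48h replicate 1, where Tap1 was lowest, the change was -0.75 and the adjusted exact permutation p was 0.0364. That was the only alternative in which a within-array comparison passed. Over the alternatives the Tap1 change ran from -1.11 to -0.66 and its adjusted exact permutation p from 0.0364 to 0.736. For the other members the change was -0.55 for Tap2 (7 of 9 arrays below all controls), 0.20 for H2-D1, 0.18 for Tapbp, 0.03 for Erap1 and 0.01 for B2m. Their adjusted exact permutation p-values ran from 0.764 to 0.991.

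Single tumors carried much of the spread after 24 h. HIFU_48h replicate 1 was the lowest of its group for 6 of 7 members, the exception being Erap1, and HIFU_72h replicate 2 the highest of its group for H2-K1, H2-D1, B2m, Tap1 and Tapbp. Leukocyte markers also varied between arrays (8 of 8 measured, among them Ptprc, which encodes CD45). Their median lay 1.57 below the control mean (-1.57) in HIFU_48h replicate 1 and 3.77 above it in HIFU_72h replicate 2, the lowest and the highest medians of their groups. Controls held values of this median from -0.87 to 1.08, the 24 h tumors from -2.63 to 0.08, the 48 h tumors from -1.57 to 1.81 and the 72 h tumors from 0.56 to 3.77. The summed signal of the markers spanned 65.47 to 80.93, 54.13 to 74.57, 60.73 to 87.89 and 77.14 to 101.96 in the same order. No marker was at 0.

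In HIFU_24h replicates 1 and 3 the leukocyte median stood at 0.08 and -0.12, within the range of the control medians, and the median of the 7 members at -1.94 and -1.96. Single markers could still lie outside the control range, such as Ptpn6 with 5.31 in HIFU_24h replicate 3 against 5.80 to 8.70. In HIFU_24h replicate 2, with the leukocyte median at -2.63, the members' median was -1.54. In replicates 1, 2 and 3 the neutrophil median stood at 2.87, 0.06 and 3.02 and the fibroblast median at 4.26, 0.28 and 3.50. With the leukocyte mean of each array as a covariate in limma, 6 of 7 members passed as lower at 24 h (all but B2m; 2.18% of all probe sets), Tap1, Tap2 and Tapbp at 48 h (1.63%) and 0 at 72 h. In that fit the 24 h differences were -1.85 for H2-K1 (adjusted p = 0.00354), -1.88 for H2-D1 (adjusted p = 0.00574) and -2.57 for Tap1 (adjusted p = 0.0104). Over all HIFU tumors 5 of 7 passed in that fit (2.16%), the exceptions being B2m and Tapbp.

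With the skeletal muscle mean as a covariate, no member passed at any time, and 0% of all probe sets passed as lower. The 24 h differences in that fit were -2.23 for H2-K1, -2.77 for H2-D1, -1.98 for B2m, -3.17 for Tap1, -1.39 for Tap2, -1.40 for Tapbp and -0.97 for Erap1. Later differences that moved by over 1.5 times were those of Erap1 at 48 h (-0.43, from -1.05) and 72 h (-0.14, from -0.76) and of H2-D1 at 48 h (-1.34, from -0.66) and 72 h (-0.77, from -0.10). The muscle median was above the control mean in all 9 HIFU arrays, and its part in the results beyond these values was not tested. Markers of T and natural killer cells, a source of interferon gamma, had signals between 2.43 and 6.69, many below the lowest array median of 5.43. Of 12 measured, 11 were lower on average at 24 h, 10 at 48 h and 10 at 72 h (49.6%, 48.8% and 56.2% of all probe sets). None passed the test, where 0.0045% of all probe sets passed as lower at 24 h and 0% at 48 and 72 h. Their median lay between -0.52 and 0.21 in controls and between -1.15 and -0.62 at 24 h, and Cd8a had signals of 3.73 to 4.75 among controls against 2.94 to 3.73 at 24 h. Neutrophil markers (9 measured) had medians between -0.25 and 0.27 in controls, and between 0.06 and 3.02, 1.18 and 5.27, and 5.16 and 9.73 at 24, 48 and 72 h. Fibroblast markers (8) had medians between -0.78 and 1.35 in controls, and between 0.28 and 4.26, 1.66 and 5.87, and 2.50 and 6.88 in the HIFU groups. Endothelial markers (8) lay between -0.22 and 0.39 in controls and between 0.17 and 1.95 in HIFU tumors, and erythroid markers (2) between -0.26 and 0.49 and between 0.55 and 6.52. Macrophage and dendritic cell markers (10) lay between -0.60 and 0.48 in controls, and between -1.51 and 0.27, -0.70 and 1.85, and -0.09 and 2.85 at the 3 times. None of these markers passed the test, and the part of these cells in the members' values was not tested.

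**Figure D4:**
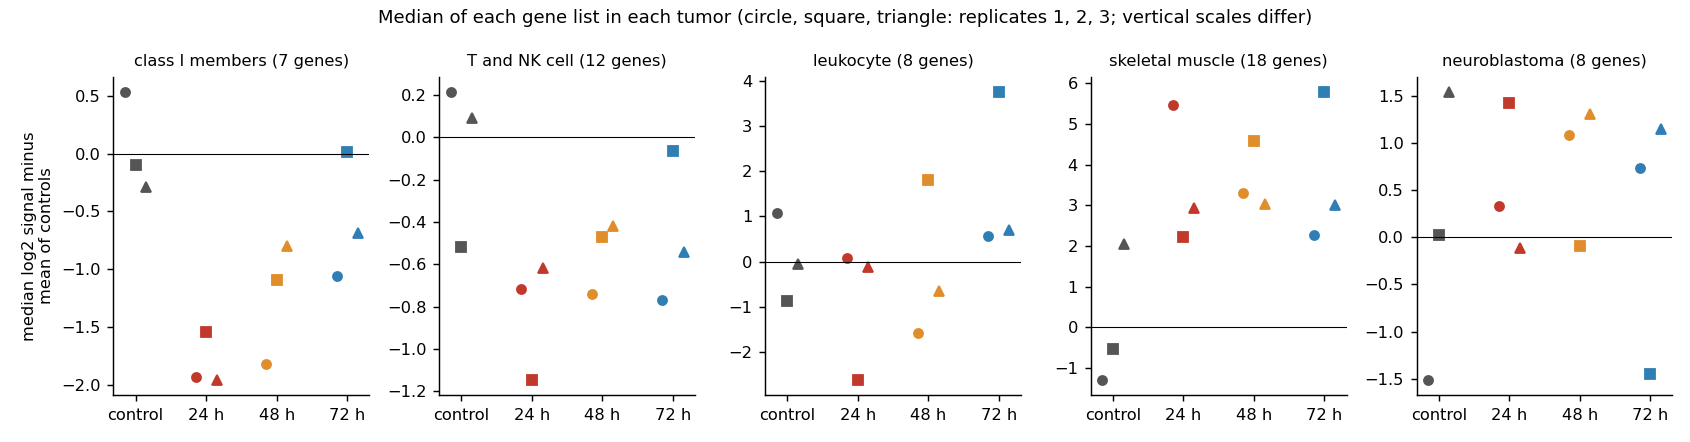
Median difference from the control mean (y axis, log2) of the members and of 4 marker lists (panels, with their own vertical scales) in each of the 12 tumors, by group (x axis), with marker shapes for replicates 1, 2 and 3. The members lie between -1.96 and -1.54 at 24 h, while leukocyte markers lie between -2.63 and 0.08 and muscle markers between 2.23 and 5.47.

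The proteins that make and chaperone the peptides were read from a list of 10 measured genes. At 24 h 9 of 10 were lower (49.6% of all probe sets), 7 without overlap with controls (7.68%), and the median was -0.95. At 48 and 72 h 8 of 10 were lower (48.8% and 56.2%), with medians of -0.45 and -0.35, and no gene of the list passed over all probe sets. The immunoproteasome subunits, which replace the standard catalytic subunits under interferon gamma, were among the genes with the lowest values. Psmb8 differed by -2.68 ± 0.44 SE at 24 h (adjusted p = 0.0931), Psmb9 by -2.84 ± 0.57 SE (adjusted p = 0.160) and Psmb10 by -2.81 ± 0.64 SE (adjusted p = 0.213). Signals of Psmb9 at 24 h were low, 4.10 to 4.65, where the lowest array median was 5.43. Psme2, a subunit of the proteasome activator PA28, differed by -1.60 ± 0.27 SE (adjusted p = 0.0956). The general chaperones of the endoplasmic reticulum, named after their values were seen, had differences at 24 h of -0.66 for Calr, -0.46 for Canx and -0.22 for Pdia3.

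In the run of neighbours on chromosome 17, the 24 h differences were -2.84 for Psmb9, -2.93 for Tap1, -2.68 for Psmb8 and -1.81 for Tap2. At 72 h they were -0.92, -1.18, -1.35 and -1.51 in the same order. None of these passed over all probe sets.

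Among 14 measured non-classical class I and class I-like genes, 13 were lower at 24 h, 12 at 48 h and 11 at 72 h (49.6%, 48.8% and 56.2% of all probe sets). The medians were -0.69, -0.23 and -0.20, and 5, 1 and 0 genes lay below controls without overlap. Of all probe sets 7.68%, 11.7% and 10.1% did, so the counts at 48 and 72 h are not above the background. H2-M3, which presents formylated peptides, differed by -2.30 ± 0.50 SE at 24 h (adjusted p = 0.196). The values at 24 h were -1.96 for H2-T10, -2.25 for H2-Q4 and -0.88 for H2-T23, the gene of Qa-1. Signals of H2-T23 were low, 4.67 to 5.64 in controls and 3.93 to 4.59 at 24 h, where the lowest array median was 5.43. Those of H2-Q4 were 4.77 to 6.65 at 24 h. Some genes of the H2-Q and H2-T regions are close copies of one another, so some of these probe sets are uncertain.

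Of 17 measured regulators of class I transcription, 13 were lower at 24 h, 12 at 48 h and 10 at 72 h, against 49.6%, 48.8% and 56.2% of all probe sets. The 72 h count is near the background. The medians were -0.20, -0.18 and -0.09, and 0 passed. Irf1, an interferon-induced factor that binds class I promoters, differed by -2.03 ± 0.50 SE at 24 h (adjusted p = 0.254), -0.83 at 48 h and -1.04 at 72 h. Socs1, which restrains interferon signaling and is induced by it, differed by -0.82 ± 0.18 SE at 24 h (adjusted p = 0.204), -0.61 at 48 h and -0.79 at 72 h. Its signals were low, 4.33 to 4.43 in controls and 3.48 to 3.65 at 24 h, where the lowest array median was 5.43. Rfx5, a subunit of the factor that binds the X box of MHC promoters, differed by -0.58 at 24 h and by -1.49 ± 0.37 SE at 48 h (adjusted p = 0.205). Irf2, a relative of Irf1, differed by -0.16 at 24 h and -0.82 at 48 h (adjusted p = 0.224). Ifng, the gene of interferon gamma, differed by -0.40 ± 0.38 SE at 24 h (adjusted p = 0.758). Its signals were low as well, 4.32 to 5.74 in controls and 4.36 to 4.54 at 24 h.

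**Figure D5:**
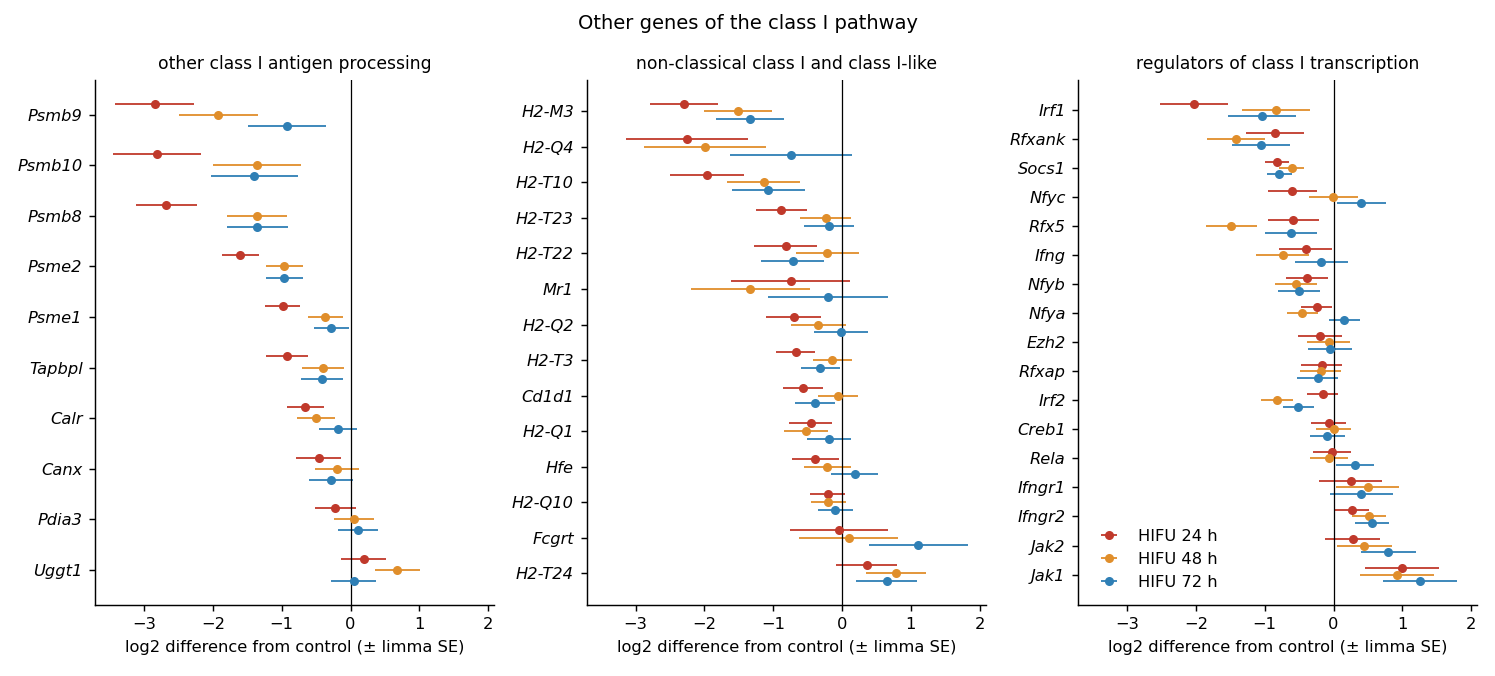
Log2 difference from control (x axis) of each measured gene of the 3 other class I lists (panels, a gene per row) at 24 h (red), 48 h (orange) and 72 h (blue), with points for the limma estimates and bars for ± 1 SE. At 24 h 9 of 10, 13 of 14 and 13 of 17 points lie below 0.

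The named genes outside these lists whose signal followed the members' mean most closely over the 12 arrays were Irgm1 (Pearson r = 0.97), Irgm2 (0.97), Iigp1 (0.97), Gbp3 (0.95), Slamf7 (0.95) and Tgtp2 (0.95). These points share 12 arrays and 4 groups, so the likeness is a description. The 24 h differences were -3.50 ± 0.65 SE for Irgm1 (adjusted p = 0.124), -4.44 for Irgm2, -4.16 for Iigp1, -4.14 for Gbp3, -3.52 for Slamf7 and -6.16 for Tgtp2. All 6 had 24 h arrays below every control and 72 h arrays above every 24 h array. Of all probe sets 7.68% did the first and 4.53% the second. The 6 were picked by their likeness to the members over these same arrays, so this pattern largely follows from the choice.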

How the data were processed

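The values deposited by the authors are log2 signals per probe set (22206), with Transcriptome Analysis Console 4.0 named in the submitters' processing notes. The sources used here do not give summarization, background correction or filters, and base 2 is an assumption. Normalization between arrays makes each difference mainly relative to the other genes. The platform annotation gave 1 symbol to 19572 probe sets, several to 0 and none to 2634. Group means over 12 arrays were fitted with limma 3.58.1 (eBayes in R 4.3.3, with 3.37 prior degrees of freedom); tests were two-sided, with Benjamini-Hochberg adjustment over all probe sets. The fit was tested on simulated data. Arrays give no read depth, and 3 per group limit the precision.

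The members and lists were chosen with earlier results of these data known. Named genes are all members, the 4 of each class I list with the lowest p of the moderated F test, Ifng, Irf1, Rfx5, Psmb8 and Psmb9, and the 6 genes most like the members; chaperones and cell markers outside this rule were named after their values were seen. Some genes of the lists are not reported here. Within-array comparisons were planned for all other members, and Nlrc5 left 6. Alternatives were a replicate block, a filter on low values, quantile normalization, median centring, an intensity trend, array weights, only the groups compared, a fold threshold, mean probe sets, tissue covariates, and leaving out each array. Promoter sequences are from RefSeq (GRCm38.p6). Figures used Python 3.11.15.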

Additional observations from a re-analysis of the deposited data

How the results depend on the processing

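The count of members past the threshold, 0 in every comparison, stayed 0 with the low-value filter, quantile normalization, the intensity trend, averaged probe sets and the muscle covariate. It became 5 at 24 h, 1 at 48 h, 1 at 72 h, 6 over all HIFU tumors and 5 by the moderated F test with array weights. It became 1 at 24 h with median centring (H2-K1, with 0.0135% of all probe sets as lower) and 1 with only the groups compared (H2-D1, with 0.0045%). With the leukocyte covariate it was 6 at 24 h, 3 at 48 h, 5 over all HIFU tumors and 3 by the F test. At an unadjusted p under 0.05 with a 2-fold change it was 7, 4, 1 and 5 in the comparisons with control. Between times it was then 2 for 48 against 24 h, 4 for 72 against 24 h and 1 for 72 against 48 h. Under this rule, and for the F tests with array weights and the leukocyte covariate, the share of all probe sets was not computed. Those counts therefore have no background to be read against. Leaving out 1 array gave 0 to 2 at 24 h, 0 to 1 over all HIFU tumors and 0 elsewhere. The cause of these shifts was not tested. The members' median at 72 h, -0.53, was -0.67 with median centring, -0.87 with the leukocyte covariate and -0.77 with the muscle covariate. With the replicate number as a block 0 members passed in every comparison (H2-K1 at 24 h: adjusted p = 0.268). Residuals of same-numbered arrays correlated from -0.61 to 0.62 (median -0.13), so the numbers were not taken to pair the tumors.

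Some differences changed sign. At 72 h against control, H2-D1 was 0.0017 without control replicate 1 (range without single arrays -0.62 to 0.33), and Tapbp was 0.026 with array weights (range -0.37 to 0.28). At 48 against 24 h, Tapbp was 0.00014 with quantile normalization (range without single arrays -0.28 to 0.16), and the range for Tap2 was -0.38 to 0.38. At 72 against 48 h, without single arrays, B2m (0.66 over all arrays) ranged from -0.16 to 1.07 and Tap2 from -0.077 to 0.69. Within arrays against H2-K1, B2m was -0.028 with quantile normalization and, without single arrays, ranged from -0.10 to 0.18, Tapbp from -0.031 to 0.43 and Erap1 from -0.12 to 0.17. The causes were not tested.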
